A study of Rattus norvegicus with 52 samples.

Results

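Long-chain fatty acids do not travel free inside a liver cell. Small cytosolic fatty acid binding proteins (FABPs) hold and carry them, and acyl-CoA synthetases join them to coenzyme A, the step that commits a fatty acid to oxidation or to storage as lipid. Clofibric acid (CA) is a fibrate that activates PPARα, a nuclear receptor that switches on genes of fatty acid uptake, transport and oxidation in rodent liver. The members described here are Fabp1, the liver FABP and a known PPARα target, Fabp3, the FABP known best from heart and skeletal muscle, Fabp5, known best from epidermis, and Acsl1, a long-chain acyl-CoA synthetase that is also known as a PPARα target. They were chosen by the accession with which a probe set's ID begins, which gave 1 probe set for each, so 4 of the 8740 non-control probe sets on the array.

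RNA abundance was measured in liver sections of F344 rats on 52 one-colour oligonucleotide arrays, 1 per sample. Rats given CA at 0.29% or 0.54% were set against untreated rats, and the sections were prepared in 5 ways. Microdissected liver, cut out by laser capture microdissection (LCM), gave 1 array at 0.29%, 1 at 0.54% and 2 untreated. Stained sections gave 7 arrays at 0.29%, 5 at 0.54% and 8 untreated. Of LCM-reference-time sections, as the labels call them, and of dehydrated ones there was 1 array for each of the 3 doses. Entire sections gave 8 arrays at 0.29%, 6 at 0.54% and 8 untreated. The sources used here give no age, sex, route or duration of dosing, nor do they say whether replicates came from separate rats, so the spread behind the p-values is that of these samples and may be partly technical. They also leave unsaid if sections of different preparations shared rats. The labelled tissue could not be checked by marker genes, because no other probe set carries a gene name here.

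The promoters of 3 members were found among the RefSeq windows of build GRCr8. Fabp1 and Fabp3, whose signals rose with CA, are shown because PPARα with its partner RXR is known to bind a repeat of AGGTCA read in the same direction with 1 base between the copies. Bases that lie before each listed start are printed 5′ to 3′ on the gene's strand, with the 1 match to that repeat, in Fabp1, in capitals.
Fabp1, chr4:104749090-104749339, plus strand: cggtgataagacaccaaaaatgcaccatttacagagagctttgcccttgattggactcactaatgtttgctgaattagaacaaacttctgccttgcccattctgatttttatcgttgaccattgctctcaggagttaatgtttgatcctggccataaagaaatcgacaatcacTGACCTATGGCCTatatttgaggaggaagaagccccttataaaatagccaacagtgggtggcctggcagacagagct
Fabp3, chr5:147935875-147936026, plus strand: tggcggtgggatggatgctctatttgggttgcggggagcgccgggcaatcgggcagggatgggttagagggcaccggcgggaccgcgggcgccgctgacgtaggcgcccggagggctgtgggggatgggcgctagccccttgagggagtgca
The Fabp1 bases end at the last base before the listed start, which lies 5038 bases inside the annotated gene. The Fabp3 bases end where the annotated gene begins, 98 bases before the listed start, so the bases between are not printed. In the Fabp1 window the capitals, at positions -77 to -65 from the listed start, read AGGCCATAGGTCA on the other strand and miss the repeat by 1 mismatch. Such a match with at most 1 mismatch stood in 0.439% of 33469 promoter windows of 300 bases, and with at most 2 mismatches in 3.77%. A single AGGTCA on either strand, which these 13 bases contain, stood in 16.2%. Neither the Fabp3 window nor that of Acsl1, whose listed start lies 21718 bases inside the annotated gene, held the repeat with up to 2 mismatches. A match describes these letters, and binding was not measured.

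CA raised the signal of the 3 binding proteins, and no CA effect on Acsl1 passed the test in the 3 preparations tested. Fabp3 changed most, with a signal near the floor in untreated liver and a further step between the doses that was called in entire sections. Fabp5 rose about as much at 0.29% as at 0.54%. Fabp1 was bright in untreated liver and rose by less than 2-fold after normalization, a rise whose call in entire sections was lost on the deposited scale. A probe set was called when its adjusted p lay under 0.05 (limma, Benjamini-Hochberg over all probe sets tested). In entire sections 3 of the 4 members were called at each dose, all higher, where 11.2% of the 7804 tested probe sets were called at 0.29% and 15.8% at 0.54%. The members' median log2 difference was 1.39 at 0.29% and 1.47 at 0.54%, against -0.01 for all probe sets tested at either dose. In stained sections the same 3 members were called at both doses, again all higher, beside 3.61% of 7913 at 0.29% and 6.31% at 0.54%. Each of these counts was also 3 without 6 arrays in doubt, 3 entire ones with a high GAPDH 3′/5′ ratio and 3 stained ones with a high 5S rRNA signal. The doses of a preparation were set against the same controls. Where groups of arrays are said below not to overlap, the share of all probe sets that separated in this way was not counted. In sections of whole tissue, fewer cells of a type and less RNA per cell cannot be told apart.

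Fabp1, probe set v01235_at, is the FABP of hepatocytes. In entire sections its deposited intensity was 3458 at the lowest, 5211 at the median and 6386 at the highest of 8 arrays at 0.29% CA, and 3521, 4617.5 and 8125 over 6 arrays at 0.54%. The 8 entire controls ran from 3084 over a median of 3680.5 to 4673. The groups overlapped: 5 of 8 arrays at 0.29% and 3 of 6 at 0.54% lay above all controls, and the array at 8125 stood far above the other 5 of its group. After quantile normalization the log2 fold change was 0.66 ± 0.08 (SE, 1.58-fold, limma adjusted p = 1.64e-06) at 0.29% and 0.81 ± 0.08 (SE, 1.75-fold, adjusted p = 1.89e-07) at 0.54%. These calls rest on the normalization. On the deposited scale without centring, the folds in entire sections were 1.37 (adjusted p = 0.0782) and 1.33 (adjusted p = 0.112). Quantile normalization gives each probe set the value that belongs to its rank on its array. Counted from the brightest, Fabp1 stood at rank 19 to 39 at 0.29%, 17 to 26 at 0.54% and 54 to 92 in entire controls, so the ranks at both doses lay apart from those of the controls although the intensities overlapped.

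In stained sections Fabp1 separated by treatment on the deposited scale itself. It ran from 5696 over a median of 6020 to 7677 on 7 arrays at 0.29%, and stood at 8696, 6267, 5315, 5055 and 7226 on the 5 arrays at 0.54%. The 8 stained controls lay between 3333 and 4231, with a median of 3665. All 12 CA arrays were above every stained control. The rise was 1.74-fold at 0.29% (log2 0.80 ± 0.12, SE, limma adjusted p = 0.00028), and at 0.54% it was 1.88-fold (log2 0.91 ± 0.14, SE, adjusted p = 0.000144). At 0.54% the call was lost on the deposited scale centred on each array's median (log2 0.58, adjusted p = 0.0681). Without centring it was kept there (1.73-fold, limma adjusted p = 0.00186). Neither preparation showed a called step between the doses for Fabp1. The 0.54% minus 0.29% log2 difference was 0.15 (95% interval -0.02 to 0.32, adjusted p = 0.537) in entire sections and 0.11 (-0.18 to 0.40, adjusted p = 0.956) in stained ones.

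Fabp3, probe set j02773_at, carries fatty acids in muscle, and its signal in untreated rat liver was close to 0. In entire sections its intensity was 89, 99.5 and 133 (lowest, median and highest of 8) at 0.29% CA, and 186, 268.5 and 432 over 6 arrays at 0.54%. The 8 entire controls ran from 4 over a median of 8 to 17, and 2 of them were at the floor of 4 to which lower values were raised. The 3 dose groups did not overlap. The rise was 13.4-fold at 0.29% (log2 3.75 ± 0.23, SE, limma adjusted p = 8.13e-11), and the 0.54% arrays gave 37.2-fold (log2 5.22 ± 0.24, SE, adjusted p = 7.62e-13). By fold these were rank 11 and rank 8 among the rises of 7804 probe sets. With controls so near the floor the folds depend on it, and they were 4.19 and 11.6 with a floor of 20.

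The step of Fabp3 between the doses sets CA arrays against CA arrays, none of them near the floor. It was 2.77-fold in entire sections (log2 1.47 ± 0.24, SE, limma adjusted p = 0.00264). Fabp3 was the 1 member called for that step, beside 1.01% of all probe sets. The fold was also 2.77 with a floor of 20. Of the mean rise at 0.54% over controls, 292 intensity units, 32.6% was present at 0.29%.

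Stained sections gave Fabp3 the same order of doses. Its intensity lay between 79 and 145, with a median of 97, on 7 arrays at 0.29%. The 5 arrays at 0.54% read 558, 228, 425, 346 and 181. The 8 stained controls lay between -5 and 34 around a median of 2, and 5 of them were at the floor. Again the 3 dose groups did not overlap, and the 5 arrays at 0.54% were spread widely, with an SD of 152 around a mean of 348. The rise was 17.4-fold at 0.29% (log2 4.12 ± 0.42, SE, limma adjusted p = 2.2e-06), and at 0.54% it was 46.4-fold (log2 5.54 ± 0.47, SE, adjusted p = 1.27e-07), or 5.05-fold and 13.5-fold with a floor of 20. The step between the doses was 2.67-fold, close to that in entire sections, but was not called (log2 1.42 ± 0.48, SE, 95% interval 0.42 to 2.42, unadjusted p = 0.00788, adjusted p = 0.827). With a floor of 20 it was called (adjusted p = 0.0254). By limma 0 members were called for this step, 1 had an unadjusted p under 0.05, and 0.0632% of all probe sets were called.

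**Figure D1:**
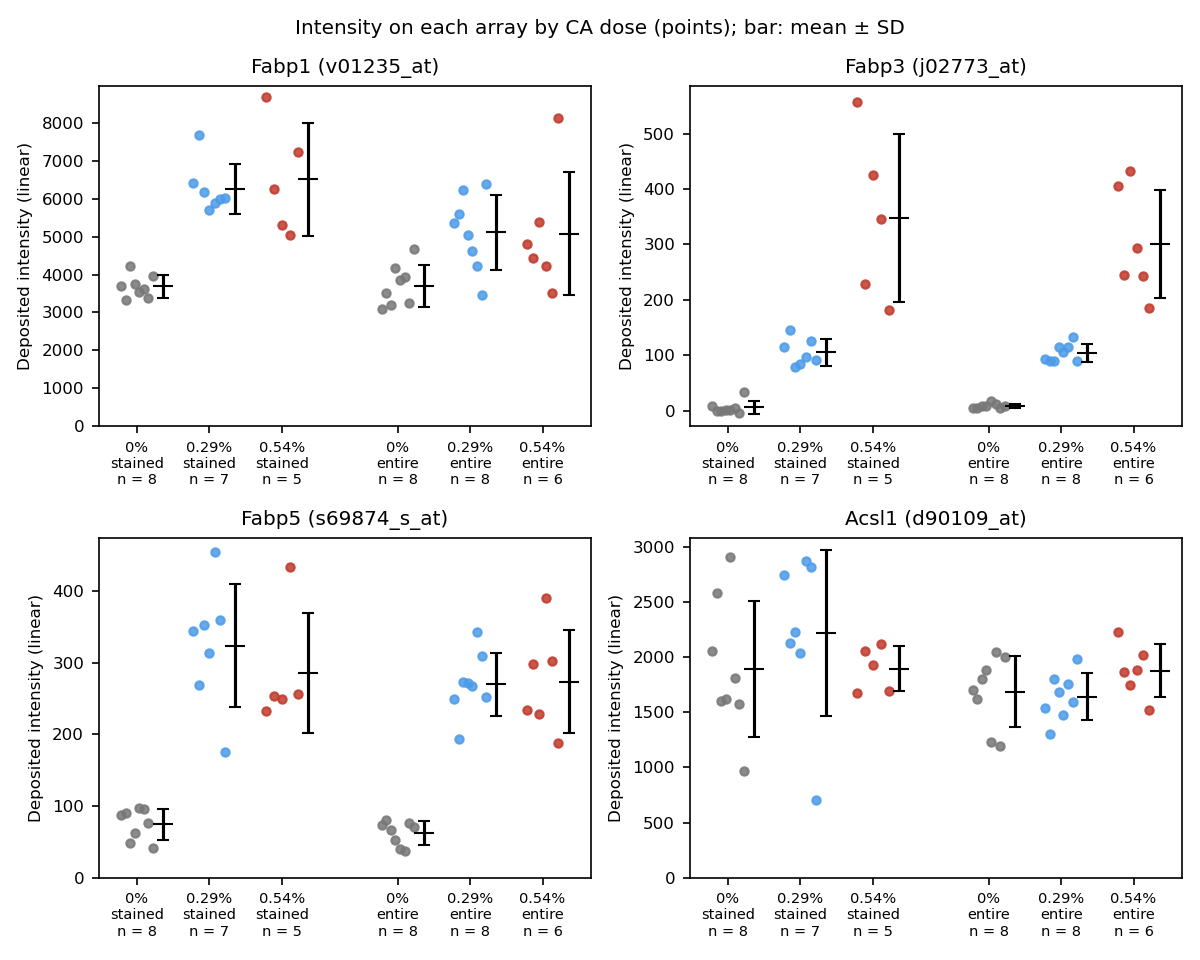
Deposited intensity (linear axis) of the 4 probe sets on each array of stained and entire sections by CA dose in percent; points are arrays and bars the mean ± SD. For Fabp3 and Fabp5 every CA array lay above every control of its preparation, and for Fabp3 every array at 0.54% lay above every array at 0.29%. How many of all probe sets separated in this way was not counted.

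Fabp5, probe set s69874_s_at, rose at both doses with no called step between them. The suffix _s_at marks probes shared by more than one transcript, and the RefSeq gene table lists Fabp5-ps2 on chromosome 1 and Fabp5-ps3 on chromosome 20 beside Fabp5 on chromosome 2, so the signal may not come from Fabp5 alone. In entire sections the intensity was 194, 269.5 and 343 (lowest, median and highest of 8) at 0.29% CA and 188, 266 and 391 (of 6) at 0.54%. The 8 entire controls ran from 37 over a median of 69 to 80. All 14 CA arrays were above all controls, and the doses overlapped almost fully. The rise was 4.34-fold at 0.29% (log2 2.12 ± 0.17, SE, limma adjusted p = 9.78e-09), and at 0.54% it was 4.37-fold (log2 2.13 ± 0.19, SE, adjusted p = 2.29e-08). The 0.54% minus 0.29% log2 difference was 0.01, with a 95% interval from -0.38 to 0.40. Of the mean rise at 0.54%, 98.3% was present at 0.29%.

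In stained sections Fabp5 ran from 176 over a median of 345 to 454 on 7 arrays at 0.29%. It read 233, 253, 250, 434 and 256 on the 5 arrays at 0.54%. The 8 stained controls lay between 41 and 97, with a median of 81.5. All 12 CA arrays were above every stained control, and 4 of the 5 arrays at 0.54% lay close together near 250. The rise was 3.98-fold at 0.29% (log2 1.99 ± 0.22, SE, limma adjusted p = 4.52e-06), and at 0.54% it was 3.14-fold (log2 1.65 ± 0.24, SE, adjusted p = 0.000113). The step of -0.34 between the doses was not called (95% interval -0.86 to 0.17, adjusted p = 0.951).

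Acsl1, probe set d90109_at, makes acyl-CoA from long-chain fatty acids. In entire sections its intensity was 1302, 1642 and 1986 (lowest, median and highest of 8) at 0.29% CA and 1525, 1877.5 and 2230 (of 6) at 0.54%. The 8 entire controls ran from 1197 over a median of 1749 to 2046. The 3 doses overlapped, and 1 of 6 arrays at 0.54% lay above all controls. The log2 fold change was 0.01 at 0.29% (95% interval -0.26 to 0.28, limma adjusted p = 0.985) and 0.31 at 0.54% (0.02 to 0.60, adjusted p = 0.147). The interval at 0.54% allows a rise of up to 1.52-fold.

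In stained sections the deposited intensity of Acsl1 spread more widely than in entire ones at 0.29% and in controls, and not at 0.54%. After normalization the log2 SD in controls was nearly the same, 0.32 in stained and 0.31 in entire sections. At 0.29% it was 0.42 in stained and 0.22 in entire sections. The intensity was 707, 2230 and 2872 (lowest, median and highest of 7) at 0.29%, and 1677, 2060, 1930, 2116 and 1690 on the 5 arrays at 0.54%. The 8 stained controls ran from 972 over a median of 1720 to 2911. The groups overlapped, and the array at 707 lay below all controls. The log2 fold change was 0.10 at 0.29% (95% interval -0.29 to 0.48, limma adjusted p = 0.901) and -0.07 at 0.54% (-0.50 to 0.35, adjusted p = 0.895). The step between the doses was 0.30 in entire sections (adjusted p = 0.433) and -0.17 in stained ones (adjusted p = 0.955).

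**Figure D2:**
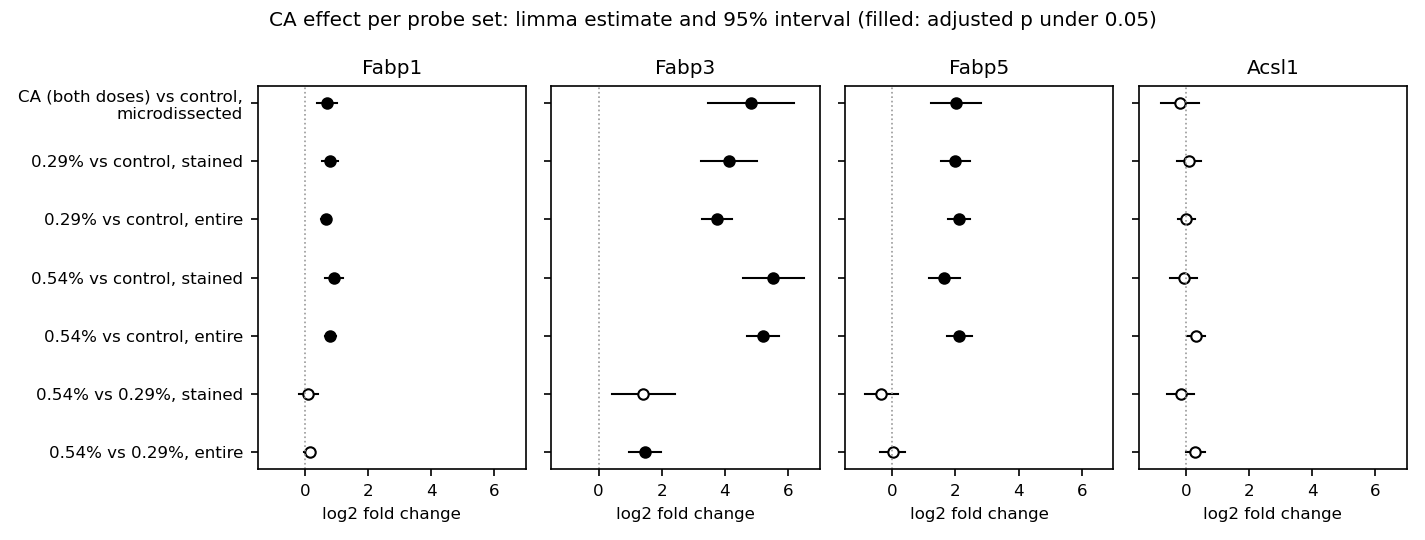
Log2 fold change (limma estimate) of the 4 probe sets with its 95% interval for each CA comparison in microdissected, stained and entire liver; filled points have an adjusted p under 0.05. All CA effects of the FABPs against controls are filled, the dose step of Fabp3 is filled in entire and open in stained sections, and no point of Acsl1 is filled.

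Microdissected liver gave the same 3 calls, with 1 array at each CA dose. The doses were averaged, and the lone arrays were assumed to vary like the other groups of the fit. Fabp1 read 6069 at 0.29% and 8618 at 0.54%, against 4064 and 3638 in the 2 microdissected controls. Fabp3 read 55 and 209 at those doses, against 0 and 6 in the controls. Fabp5 read 125 and 150, against 57 and 23. For these 3 members both CA arrays were above both controls. How many of all probe sets showed such an order was not counted, here or in the other preparations. The rise was 1.63-fold for Fabp1 (log2 0.70 ± 0.15, SE, limma adjusted p = 0.00147), 28.6-fold for Fabp3 (log2 4.84 ± 0.67, SE, adjusted p = 1.19e-06) and 4.08-fold for Fabp5 (log2 2.03 ± 0.39, SE, adjusted p = 0.000273). Of 8318 probe sets tested, 12.9% were called. The fold of Fabp3 was 8.47 with a floor of 20, and the call of Fabp1 was lost on the deposited scale centred on the median (log2 0.93, adjusted p = 0.0728). Signs of RNA quality moved with CA on these arrays. The GAPDH 3′/5′ ratio was 6.20 at 0.29% and 3.02 at 0.54%, against 14.3 and 9.22 in the controls, and the 5S rRNA intensity was 319 and 754, against 97 and 285. With the GAPDH ratio in the fit the 3 calls stood, at log2 0.67 for Fabp1 (adjusted p = 0.00447), 4.85 for Fabp3 (adjusted p = 4.08e-06) and 2.36 for Fabp5 (adjusted p = 1.07e-05). The part of the 5S rRNA signal in these results was not tested.

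Acsl1 in microdissected liver read 561 at 0.29% and 2027 at 0.54%, against 1741 and 709 in the controls. The 2 CA arrays lay on either side of both controls, and the averaged log2 difference was -0.18 (95% interval -0.78 to 0.41, limma adjusted p = 0.837). The arrays at 561 and 709 were also dim as a whole: their trimmed mean intensities were 45.5 and 47.2, against 94.1 and 79.3 on the other 2 microdissected arrays. What overall brightness adds to these values was not tested.

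The single arrays of LCM-reference-time and dehydrated sections were not tested. From control to 0.54%, Fabp3 read -3, 112 and 312 after dehydration, and in LCM-reference-time sections it read -18, 86 and 174. Its order of control, 0.29% and 0.54% was thus the same in all 5 preparations. Fabp5 read 135, 448 and 336 after dehydration and 23, 136 and 191 in LCM-reference-time sections, so both CA arrays were above the control in each, with the doses in opposite order. After normalization its 0.54% value was 0.05 and 0.06 above its 0.29% value on the log2 scale, while in microdissected liver, where the intensities were 125 and 150, it was 0.86 below. Fabp1 read 5039, 5252 and 5554 in dehydrated sections. That is a rise of 1.10-fold at 0.54%, against 3.42-fold in LCM-reference-time sections, where the values were 2605, 7007 and 8902. After normalization the log2 difference of Fabp1 at 0.54% was 0.41 after dehydration and 0.91 in LCM-reference-time sections. Acsl1 read 2450, 2357 and 2615 after dehydration. In LCM-reference-time sections it read 574, 889 and 1206, and its normalized log2 differences on these 4 CA arrays lay between -0.05 and 0.32.

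**Figure D3:**
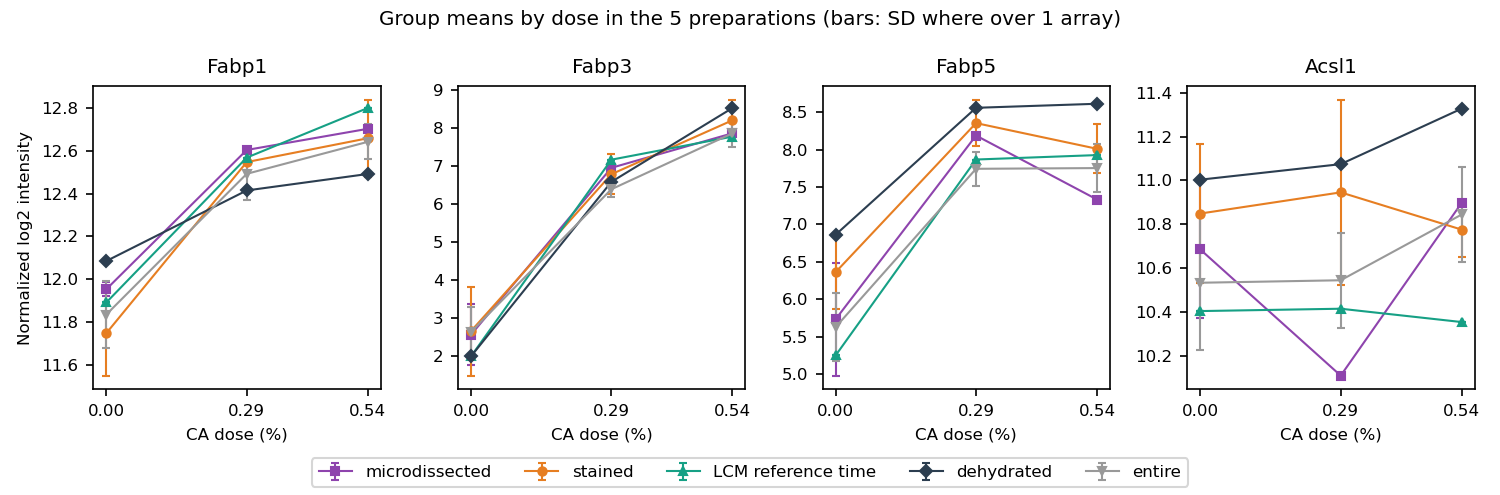
Mean normalized log2 intensity of each probe set against CA dose (percent) in microdissected, stained, LCM-reference-time, dehydrated and entire sections; bars are the SD where a group holds more than 1 array. Fabp3 rises with each dose in all 5 preparations, Fabp5 rises between 0 and 0.29%, and the lines of Acsl1 cross.

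The preparations themselves were also compared, and they differed in the GAPDH 3′/5′ ratio, which is 1 sign of RNA quality. What else may move this ratio was not tested. A GAPDH probe set at the 3′ end was divided by one at the 5′ end, a ratio that grows as RNA breaks down. Its median was 7.71 in microdissected liver, 8.45 in stained, 4.70 in LCM-reference-time, 11.8 in dehydrated and 1.54 in entire sections. In untreated rats 1 of the 4 members, Fabp5, was called between stained and entire sections, where 30.2% of 8191 probe sets were called. It was 1.66-fold higher in stained controls (log2 0.73 ± 0.19, SE, limma adjusted p = 0.00261). At 0.29% CA it was again the 1 called member, beside 22.8% of all probe sets, and was 1.53-fold higher in stained sections (log2 0.61 ± 0.20, SE, adjusted p = 0.0196). At 0.54% limma called 0 members, none had an unadjusted p under 0.05, and 10.1% of all probe sets were called (Fabp5 log2 0.26, adjusted p = 0.591). Both calls of Fabp5 were lost with the GAPDH ratio as a covariate, at log2 0.17 (adjusted p = 0.837) in controls and 0.15 (adjusted p = 0.854) at 0.29%. They were also lost on the deposited scale without centring, at 0.25 (adjusted p = 0.392) and 0.23 (adjusted p = 0.511), and the call at 0.29% was lost without stained replicate 5 of that dose (log2 0.53, adjusted p = 0.0615). Over all 8191 probe sets the covariate also lowered the calls, from 2475 to 400 in controls and from 1868 to 345 at 0.29%. The GAPDH ratio ran from 2.59 to 18.9 in stained and from 1.18 to 6.49 in entire sections. The ratio thus largely went with the preparation, and a fit that holds both can hardly tell them apart. What part the ratio had in the Fabp5 difference was not tested.

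Acsl1 did not pass the test between stained and entire sections. Its log2 difference was 0.32 in controls (adjusted p = 0.11), 0.40 at 0.29% (adjusted p = 0.0566) and -0.07 at 0.54% (adjusted p = 0.945). The result at 0.29% lay near the threshold, and leaving out any 1 of 4 arrays gave a call. Without stained replicate 7, the array at 707 and 1 of the 3 stained ones whose 5S rRNA probe set read over 200, it stood at log2 0.53 (adjusted p = 0.00606). Without stained replicate 4, entire replicate 6 or entire replicate 8 of that dose it stood at 0.43 to 0.44 (adjusted p = 0.0431 to 0.0476). It was also called with a floor of 20 (adjusted p = 0.0422), with trend and robust fitting (adjusted p = 0.046) and with median centring (log2 0.74, adjusted p = 0.00487). Fabp1 and Fabp3 had log2 differences from -0.09 to 0.39 over the 3 doses, none called. On the deposited scale centred on each array's median, where the median of all probe sets itself moved by 0.27 to 0.42, Fabp1 was called higher in stained sections at all 3 doses.

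**Figure D4:**
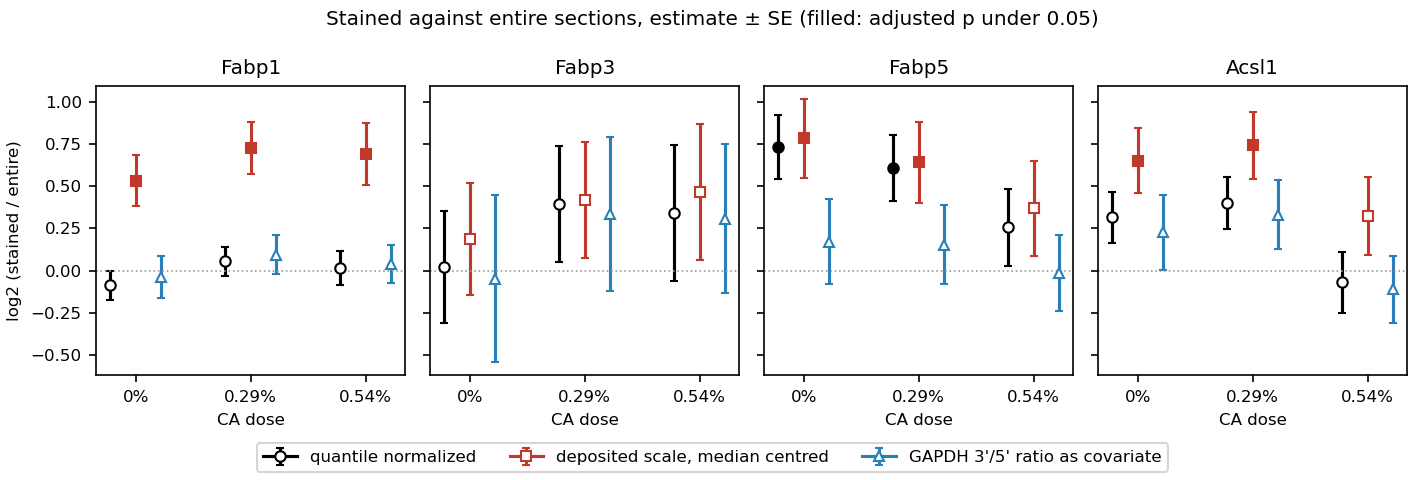
Log2 ratio of stained to entire sections (estimate ± SE) of the 4 probe sets at each CA dose, on the quantile normalized scale, on the deposited scale centred on each array's median, and with a covariate for the GAPDH 3′/5′ ratio; filled points have an adjusted p under 0.05. Fabp5 is filled in controls and at 0.29% on the first scales named, and no point is filled with the covariate.

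Whether the CA effect itself differed between stained and entire sections was tested by the interaction. By limma 0 of 4 members were called at 0.29%, beside 0.0855% of all probe sets, and 0 at 0.54%, beside 0.134%, and no member had an unadjusted p under 0.05. For Fabp3 the log2 difference of the effects was 0.37 at 0.29% (95% interval -0.59 to 1.34) and 0.32 at 0.54% (-0.74 to 1.38). For Fabp5 it was -0.12 (-0.67 to 0.43) and -0.48 (-1.08 to 0.12). For Fabp1 it was 0.14 (-0.10 to 0.39) and 0.10 (-0.16 to 0.37), and for Acsl1 0.09 (-0.35 to 0.52) and -0.38 (-0.86 to 0.09). The intervals of Fabp3 reach a ratio of the folds of 2.53 at 0.29% and 2.59 at 0.54%. Differences within the intervals are compatible with these arrays, so equal effects were not shown.

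Microdissected against stained liver, with the doses averaged, gave 0 called members by limma and 1 with an unadjusted p under 0.05, while 12.3% of all probe sets were called. Fabp5 was at log2 -0.49 ± 0.22 (SE, adjusted p = 0.152), Acsl1 at -0.29 (adjusted p = 0.279), Fabp3 at -0.09 (adjusted p = 0.935) and Fabp1 at 0.10 (adjusted p = 0.513). On the deposited scale Fabp5 was called lower in microdissected liver, at -0.87 with centring (adjusted p = 0.0331) and -1.06 without (adjusted p = 0.00157).

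Within groups the members did not move as 1 unit. Over the 42 stained and entire arrays, which share dose groups and preparation, the Pearson correlation of normalized log2 values was 0.921 between Fabp1 and Fabp3, 0.803 between Fabp3 and Fabp5 and 0.775 between Fabp1 and Fabp5. For the deviations from the group means, which leave out dose and preparation, the same pairs gave 0.21, -0.39 and -0.49. The Fabp3 deviations include controls near the floor, with a normalized log2 SD of 1.17 in stained and 0.66 in entire sections. In the CA groups of both its SD was 0.21 to 0.54, and what the floor adds to these correlations was not tested. Acsl1 had correlations of 0.076 with Fabp1 and 0.088 with Fabp3 over arrays, and 0.326 with Fabp5. Its deviations correlated with those of Fabp5 at 0.355.

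Among 5845 probe sets, those most like each member over the same 42 arrays were taken by the highest correlation. For Fabp1 they were j02749_at (0.960, and 0.659 for deviations) and j02749_g_at (0.943 and 0.525). For Fabp3 they were ab010428_s_at (0.951 and 0.028) and d43623_g_at (0.941 and 0.118). Their likeness over arrays thus came with almost none within groups, where the Fabp3 deviations include its controls near the floor. For Fabp5 they were d00512_at (0.934 and 0.480) and k01934mrna#2_at (0.921 and 0.700). For Acsl1 they were x54510_g_at (0.838 and 0.791) and j03969_at (0.825 and 0.783), where the likeness was nearly as high within groups as over all arrays. These are descriptions of arrays that share dose and preparation within a group, and the probe sets carry no gene names here.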

How the data were processed

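The deposited values are linear intensities, 1 whole number per probe set and array, of 52 arrays, for 8740 non-control probe sets and 59 controls; the authors' software and scaling are not stated in these sources. Per array, 20.6 to 30.1% of the intensities lay below 0. Intensities under 4, the 10th percentile of the positive ones, were raised to 4, turned to log2 and quantile normalized over all arrays without controls. The fits used limma 3.58.1 in R 4.3.3 (lmFit, eBayes, two-sided), over non-control probe sets above the floor on at least 1 array, with Benjamini-Hochberg adjustment over all of them. Entire groups were fitted together, stained groups together, both for their difference, and all 15 groups for microdissected liver. Sequences were searched with Python 3.11.15 and plots drawn with matplotlib 3.10.9. The fits were tried on simulated log2 values, with changes planted in probe sets well above the floor. The floor and the normalization were not part of that trial.

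The number of arrays limits the precision. Members and lists were chosen with earlier results of these data known. Members are named by the accession in their probe set ID. None of the 8740 IDs matched the gene table, so gene lists and cell type markers planned by symbol were not used. Probe sets named as most like a member are the 2 with the highest correlation. Alternatives were the deposited scale with and without centring (the last chosen after seeing the data), other floors, filters, variance priors and fits, a covariate for the GAPDH 3′/5′ ratio, leaving out 6 arrays in doubt among entire and stained sections (3 entire with a ratio above 4, 3 stained with 5S rRNA above 200; 3 of 4 microdissected arrays also exceeded 200 and were kept) or each replicate, and the replicate number as a block.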

Additional observations from a re-analysis of the deposited data

Results flagged for a closer look

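Of 24 groups of 5 to 8 arrays, each 1 member at 1 dose of stained or entire sections, 1 held a value far from the others. Chance flags about 1 such group in 20, so 1 flag is near what chance gives. Stained control replicate 8 had a Fabp3 intensity of 34, while the other 7 stained controls lay between -5 and 8. Its normalized log2 value, on which the flag rests, was 5.32, and 5 of the 8 stained controls were at the floor. The array is among the 6 in doubt, with a 5S rRNA intensity of 232. Without it the Fabp3 rise in stained sections was 22.6-fold at 0.29% CA, against 17.4-fold with it, and 60.4-fold at 0.54%, against 46.4-fold.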

How the results depend on the processing

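Of 1412 member values under an alternative, 11 lost a call, 16 gained one, 44 turned sign while called on neither side, and 1 turned sign and was called: Fabp1 in stained against entire controls, at log2 0.53 (adjusted p = 0.00438) on the deposited scale centred on the median. No alternative ended a call of Fabp3 or Fabp5 between CA and control. Members called between stained and entire controls, 1 here, were 3 with centring, and 0 without centring or with the GAPDH covariate. Of all 8191 probe sets, 3798, 2216 and 400 were called under these settings, in that order, against 2475 here. At 0.29% CA, where 1 was called, there were 3 with centring, 0 without centring or with the covariate, 2 with a floor of 20, with trend and robust fitting or without the arrays in doubt, and 0 to 2 when 1 replicate was left out. Of all probe sets 2780, 1697 and 345 were called at 0.29% with centring, without it and with the covariate, against 1868 here. The floor of 20, trend and robust fitting, and leaving out the arrays in doubt gave 1668, 1872 and 2129 at that dose. At 0.54%, 1 member was called with centring (930 of all probe sets), against 0 here (830). Between microdissected and stained liver 1 member was called with centring (1065 of all probe sets) and 2 without (1830), against 0 here (1027). When 1 replicate was left out there were 0 to 1. The step between doses in stained sections had 1 member called with a floor of 20 (10 of all probe sets), against 0 here (5). Of 57 pairs of arrays with the same replicate number, 22 had deviations that correlated above 0.1, most often for 0.29% CA and control (6 of 7 in stained sections, with a median of 0.23 against -0.06 for differing numbers, and 5 of 8 in entire ones, 0.13 against 0.00). In none of the 9 pairs of groups were all above 0.1, nor did every array correlate best with its own number. Arrays that did so ran from 1 of 10 (stained 0.29% and 0.54%) to 7 of 14 (stained control and 0.29%). Pairing was not assumed, and what the shared numbers stand for was not tested. With a replicate block the member counts of the 11 comparisons it was fitted for were the same, and the Fabp3 step was log2 1.40 in entire sections (adjusted p = 0.0174) and 1.54 in stained ones (adjusted p = 0.141). Over the alternatives, the counts of all called probe sets behind the percentages ran from 539 to 1040 (877 here) and from 790 to 1393 (1236) for 0.29% and 0.54% CA in entire sections, from 33 to 211 (79) for the step, from 218 to 546 (286), 301 to 964 (499) and 1 to 18 (5) in stained sections, from 400 to 3798 (2475), 345 to 2780 (1868) and 549 to 994 (830) for stained against entire sections at the 3 doses, from 2 to 17 (7) and 3 to 30 (11) for the differences of effects, from 312 to 1841 (1069) for CA in microdissected liver and from 207 to 1830 (1027) for microdissected against stained liver. The causes were not tested. Limits: no gene names, no presence calls, single arrays in 8 groups, and Fabp3 controls near the floor.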
